A study of Mus musculus with 6 samples.

Results

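The barcodes described here came from mouse dorsal skin and were chosen by 3 genes of lymphocytes, Icos, Il7r and Ltb. A barcode was taken when it carried at least 3 unique molecular identifiers (UMIs, each standing for 1 captured transcript) of these genes together, and when those UMIs made up at least 8 of every 10000 in that barcode. The rule found 527 of the 55177 barcodes that passed the filters on cells, and they are called gated barcodes below. The wildtype FVB males were 55 to 57 days old, and their back skin was shaved and waxed to start hair regrowth. Skin was collected before depilation (0 h) and at 4 h, 16 h, 2 days, 4 days and 6 days after it. Cells of 2 mice were mixed in equal numbers before droplet capture, so each time point is 1 library and 1 sample, and no test between any pair of time points is possible. The 6 libraries held 73894299, 72634390, 112370376, 99686327, 95678280 and 88632160 UMIs in time order, and all 6 groups share genotype, strain and sex. Of all barcode sequences 430 occurred in more than 1 library, among them those of 7 gated barcodes, none of which was gated in both.

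Icos is a costimulatory receptor of activated T cells, Il7r is the chain of the interleukin 7 receptor that lymphocytes use for survival, and Ltb is lymphotoxin beta, a TNF family ligand made by lymphocytes. Mouse epidermis holds dendritic epidermal T cells, which carry an invariant gamma delta receptor and make cytotoxic proteins and growth factors. The dermis holds gamma delta T cells that make interleukin 17, regulatory T cells that express Foxp3, and a few innate lymphoid cells. Langerhans cells, the antigen presenting cells of the epidermis, carry langerin (Cd207) and MHC class II.

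On the GRCm38 build, Icos lies on chromosome 1 from 60960773 to 61000322, Il7r on chromosome 15 from 9506159 to 9529941 and Ltb on chromosome 17 from 35194507 to 35196305. Il17a, from 20730905 to 20734496, and Il17f, from 20777146 to 20785274, are neighbours on chromosome 1. The promoters of Il7r and Ltb, the genes that brought most barcodes through the gate, and of Il17a and Il17f, cytokine genes of the largest cluster below, are given here as the 250 bases before the start site listed for each. A gene's span covers all of its RefSeq transcripts, and the listed start sites of Il7r and Il17f lie inside their spans. The sequences are from RefSeq (GRCm38.p6), read 5′ to 3′ on the strand of the gene, and capitals mark the motif letters found by search on both strands. Il7r is chr15:9529877-9530126 on the minus strand, Ltb is chr17:35194257-35194506 on the plus strand, Il17a is chr1:20730655-20730904 on the plus strand and Il17f is chr1:20784271-20784520 on the minus strand.
Il7r: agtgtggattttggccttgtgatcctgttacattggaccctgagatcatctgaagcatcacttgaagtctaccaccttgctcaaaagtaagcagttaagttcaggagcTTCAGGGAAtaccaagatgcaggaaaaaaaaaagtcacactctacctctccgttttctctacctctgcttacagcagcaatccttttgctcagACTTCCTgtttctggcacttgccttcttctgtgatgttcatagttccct
Ltb: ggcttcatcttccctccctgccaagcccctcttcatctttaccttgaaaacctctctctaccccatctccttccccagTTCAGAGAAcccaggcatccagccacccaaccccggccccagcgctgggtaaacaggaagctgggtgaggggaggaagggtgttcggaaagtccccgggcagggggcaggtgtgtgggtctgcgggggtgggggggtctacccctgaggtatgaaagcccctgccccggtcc
Il17a: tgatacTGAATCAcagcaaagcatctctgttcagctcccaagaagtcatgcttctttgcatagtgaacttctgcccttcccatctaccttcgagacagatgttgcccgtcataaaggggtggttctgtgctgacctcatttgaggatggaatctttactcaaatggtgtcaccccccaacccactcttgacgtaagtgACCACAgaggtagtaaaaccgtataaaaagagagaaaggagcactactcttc
Il17f: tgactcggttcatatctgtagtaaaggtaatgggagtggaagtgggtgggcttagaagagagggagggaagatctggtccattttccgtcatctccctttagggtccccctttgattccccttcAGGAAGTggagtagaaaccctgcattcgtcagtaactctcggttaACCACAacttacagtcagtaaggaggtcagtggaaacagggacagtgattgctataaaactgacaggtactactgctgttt
The Il7r window held a STAT motif (TTCNNNGAA) and an ETS motif (AGGAAGT, here on the other strand), and the Ltb window held a STAT motif. The Il17a window held an AP-1 motif (TGANTCA) and a RUNX motif (TGTGGT), the latter on the other strand. The Il17f window held an ETS motif and a RUNX motif on the other strand. Of 32851 promoters of the same length, 7.02% held the STAT letters, 7.69% the ETS letters, 6.75% the AP-1 letters and 14.0% the RUNX letters. A match describes the letters and was not tested as a binding site.

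The gated barcodes were not all lymphocytes. Of the 527, 172 (32.6%) carried at least 20 UMIs of Cd207, H2-Aa, H2-Ab1 and Cd74, genes of Langerhans cells and of MHC class II antigen presentation. By library they numbered 1, 59, 30, 45, 19 and 18 in time order. None of the 172 held 4 or more UMIs of Cd3e, Cd3g, Cd3d and Trdc, the genes of the T cell receptor complex and of the delta chain constant region, and 167 held none. Almost all of their gate UMIs (97.5%) were Il7r, and 160 of them held Il7r as the only gate gene. Their level of Cd74, the MHC class II invariant chain, was 41457 CPM (the UMIs of a gene scaled to the total UMIs of the sum), and that of Cd207 was 7387 CPM. They are called gated barcodes with MHC class II.

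The other 355 gated barcodes, called those without MHC class II, numbered 11, 44, 42, 37, 165 and 56 by library. Their gate UMIs were 53.2% Ltb, 28.3% Il7r and 18.5% Icos. Cd207 was at 2.74 CPM in them and Cd74 at 108, with no Csf1r or Flt3 UMI at all. Over all 527, 262 held 4 or more UMIs of the CD3 and Trdc genes and 197 held none. A UMI of Trdc was present in 202, and 127 without Trdc held at least 2 UMIs of the alpha beta receptor genes, of which 13 also held Foxp3, 8 Cd4 and 3 a Cd8 gene. Only 30 of the 355 held no CD3 or Trdc UMI. The median depth was 2922 UMIs over all gated barcodes, 4194 in those with MHC class II and 2478 in those without.

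The mixture differed between the edges of the gate. The 99 gated barcodes with exactly 3 gate UMIs reached 4 CD3 and Trdc UMIs in 69.7% and carried MHC class II in 25.3%, and the 129 barcodes just outside with 2 gate UMIs at 8 per 10000 or more did so in 90.7% and 6.20%. At the other edge, 68.8% of the 80 gated barcodes from 8 to under 10 per 10000 carried MHC class II, and so did 79.6% of the 93 barcodes with 3 or more gate UMIs that lay from 6 to under 8 per 10000.

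Gated barcodes of both kinds together were a smaller share of passing barcodes before depilation than in each of the 5 later libraries. They numbered 12, 103, 72, 82, 184 and 74 in time order. As a share of passing barcodes, with 95% exact binomial intervals, the 0 h library gave 0.173% (0.0896% to 0.302%), the 4 h library 1.34% (1.10% to 1.63%) and the 16 h library 0.825% (0.646% to 1.04%). The 2 day library gave 0.860% (0.685% to 1.07%), the 4 day library 1.48% (1.28% to 1.71%) and the 6 day library 0.746% (0.586% to 0.936%). These intervals cover counting error only, and the difference between mice was not measured. The 4 h and 4 day libraries stood highest, and their intervals overlapped. They differed in makeup, since barcodes with MHC class II were 59 of 103 at 4 h and 19 of 184 at 4 days. The 2900 barcodes with at least 4 UMIs of the CD3 and Trdc genes that failed the gate, called other CD3 barcodes, numbered 231, 377, 241, 967, 787 and 297. Per 100 of these there were 5.19, 27.3, 29.9, 8.48, 23.4 and 24.9 gated barcodes, so this ratio was low at 0 h and at 2 days. It is not a ratio among T cells, since it counts the gated barcodes with MHC class II. Those were 59 of 103 at 4 h and 45 of 82 at 2 days.

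Clustering of the 527 gated barcodes gave 8 clusters, described here by their leading genes with no test. Cluster 1 (102 barcodes) was dendritic epidermal T cell-like. It was led by Fermt2, Ctla2a, the pore forming protein Prf1, Cd7, Trat1, Trdc and the cytotoxic granule gene Nkg7, and all 102 held Trdc. It came from all libraries but that of 6 days, with 5, 12, 21, 12, 52 and 0 barcodes, and 84.5% of its gate UMIs were Ltb. Cluster 7 (41 barcodes) stayed unnamed. Its leading genes included the granzyme Gzmc, the chemokines Ccl5, Ccl1 and Ccl4, and the cytokines Csf2 and Ifng, and 27 of its barcodes came from the 4 day library. Gzmc is 1 of a family of near-identical granzymes whose reads can be split in counting.

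Cluster 2 was the largest with 152 barcodes and stayed unnamed, since its markers went 2 ways. Of the 12 markers of IL-17 gamma delta T cells 7 were higher in it than in the other gated barcodes, but so were Trac, Trbc1 and Trbc2 of the alpha beta receptor, and Trdc was not. The other gated barcodes include nearly all of those with MHC class II, and cluster 1, where Trdc stood at 5251 CPM. By the same measure Trbc1 and Trbc2 were also higher in clusters 1 and 7, and Trac in cluster 4. These receptor genes therefore do not set cluster 2 apart from the other T cell clusters. Il17f, Il17a, the lymphocyte transcription factor Ikzf3, Ccr6, Blk and Cxcr6 were among its leading genes, and Il17a stood at 394 CPM with a UMI in 19.7% of its barcodes and Il17f in 22.4%. All 6 libraries held it, with 5, 20, 14, 14, 61 and 38 barcodes, and all 3 gate genes contributed (Icos 20.9%, Il7r 37.5%, Ltb 41.6% of gate UMIs). A Trdc UMI was found in 76 of the 152. Cluster 4 (39 barcodes) was regulatory T cell-like, led by Ctla4, Tnfrsf4, Foxp3 and Il1rl1, and drew the largest share of any cluster from Icos (39.2%). Its Foxp3 level was 327 CPM, and no Trdc UMI was found in it. It numbered 1, 6, 2, 6, 14 and 10 by library.

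The remaining clusters were led by genes of other cells. Clusters 3 (97 barcodes) and 6 (25 barcodes) were dendritic and Langerhans cell-like. Cluster 3 was led by P2rx2, H2-M5 and H2-DMa, whereas Cluster 6 was led by Basp1, Cxcl16, Cd207, Il1b, Ccl22, Cd83 and Cd40, genes of activated antigen presenting cells, and came mainly from the 4 h (12) and 6 day (9) libraries. Cluster 5 (51 barcodes) carried MHC class II with Ms4a6d, Lyz2, Timp1, Fcgr2b and Il18 and stayed unnamed. It held 46 barcodes of the 4 h library and 5 of the 16 h library, so it may stand for the 4 h library and not for a type. Il7r gave 98.5%, 98.7% and 93.5% of the gate UMIs in clusters 3, 5 and 6. Cluster 8 (20 barcodes) was keratinocyte-like with Krt14 and Krt5, and 19 of its 20 barcodes had a high doublet score, which marks droplets that may hold more than 1 cell. Of the 20, 12 held Trdc and 11 held 4 or more UMIs of the CD3 and Trdc genes.

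**Figure D1:**
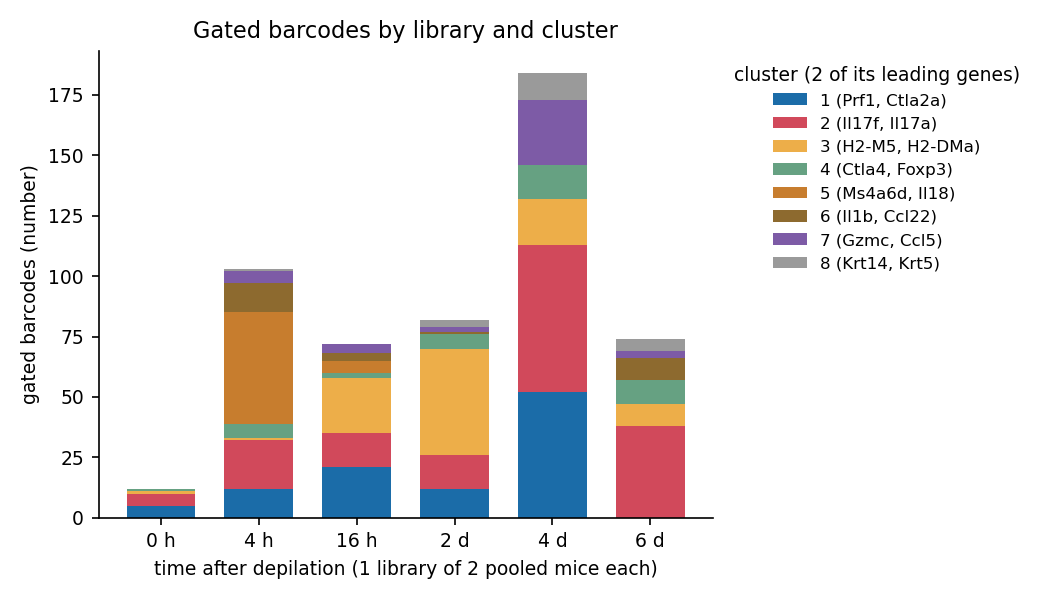
Number of gated barcodes at each time after depilation (bar height, 1 library of 2 pooled mice per bar), split by cluster with 2 leading genes of each in brackets. The bars run from 12 at 0 h to 184 at 4 days, cluster 5 fills 46 of the 103 at 4 h, and cluster 1 is missing at 6 days.

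**Figure D2:**
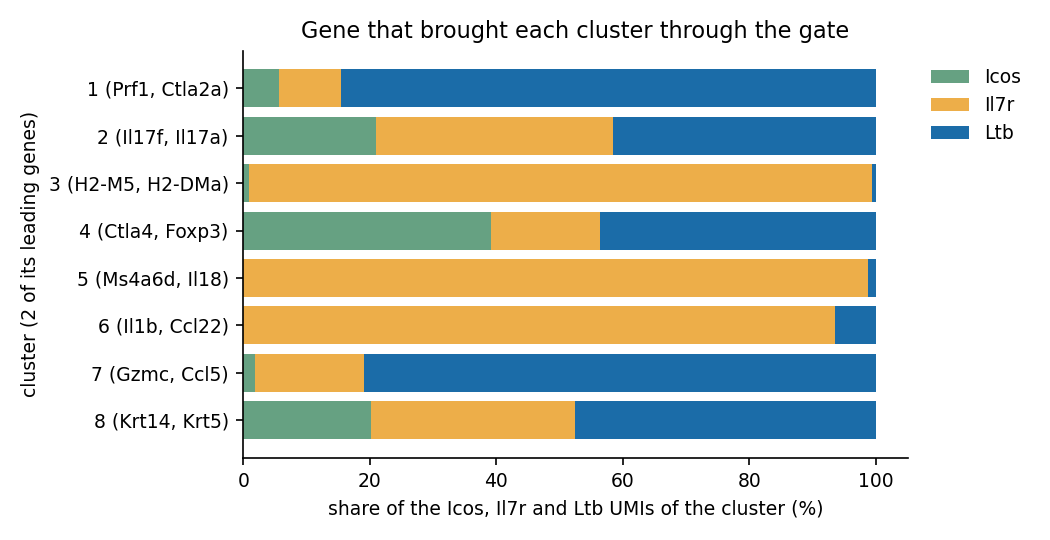
Share of Icos, Il7r and Ltb in the gate UMIs of each cluster, in percent, with 2 leading genes of the cluster in brackets. Il7r filled clusters 3, 5 and 6 (at least 93.5%), Ltb made up 84.5% of cluster 1, and Icos was largest in cluster 4 (39.2%).

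**Figure D3:**
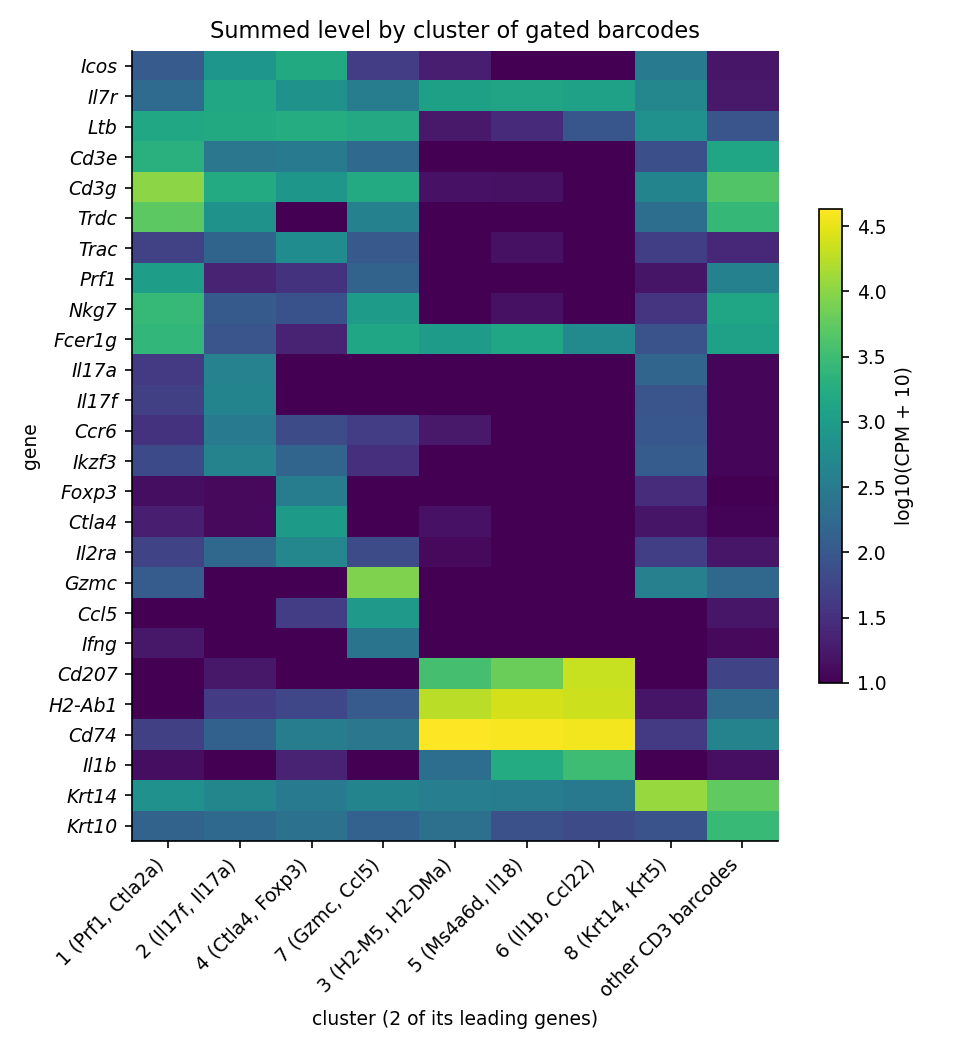
Summed level of 26 genes (rows) in the 8 clusters of gated barcodes and in other CD3 barcodes (columns), coloured on a log10 scale of CPM plus 10. Il17a and Il17f were high in cluster 2, Foxp3 and Ctla4 in cluster 4, Gzmc in cluster 7, and Cd207 and Cd74 in clusters 3, 5 and 6.

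The gate took most barcodes with interleukin 17 and few of the Trdc barcodes. Of the 54 passing barcodes with at least 2 UMIs of Il17a and Il17f, 44 were gated (81.5%, exact interval 68.6% to 90.7%), and of the 150 with a UMI of Ikzf3, 120 were gated (80.0%). Of the 46 with a UMI of Foxp3, 21 were gated (45.7%). The gate took 131 of the 2704 barcodes with at least 4 UMIs of Trdc (4.84%), and 22 of the 83 with at least 5 UMIs of Gzmc (26.5%), of which 51 were among the other CD3 barcodes. Of the 1019 barcodes with Cd207 and MHC class II it took 171 (16.8%). The share taken from these was 2.17%, 30.7%, 19.2%, 14.4%, 11.9% and 11.4% in time order. It was highest at 4 h (24.3% to 37.8%), with an interval that overlapped that at 16 h (13.3% to 26.4%).

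The gate genes were then read in barcodes chosen by other genes. In the 1019 Cd207 barcodes, with exact Poisson intervals, Il7r stood at 208 CPM before depilation (157 to 270), and the 4 h library gave 443 (406 to 483), the 16 h library 293 (264 to 325) and the 2 day library 288 (266 to 313). The 4 day library gave 168 (147 to 191) and the 6 day library 245 (216 to 277). The interval at 4 h lay above all the others, and that at 4 days overlapped only the one at 0 h. An Il7r UMI was found in 73.4% of all Cd207 barcodes, in 2.66% of the Trdc barcodes and in 0.367% of keratinocyte barcodes, whose median depth was 8308 UMIs.

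In the 2704 Trdc barcodes, Ltb was at 55.1 CPM before depilation (40.2 to 73.7), and the 4 h library gave 167 (144.4 to 191), the 16 h library 190 (163 to 220) and the 2 day library 59.8 (52.1 to 68.3). The 4 day library gave 236 (220 to 253) and the 6 day library 107 (88.1 to 128). The levels at 0 h and 2 days did not differ beyond counting error, nor did those at 4 h and 16 h, and the interval at 4 days met that at 16 h at its edge. These series are descriptions of single libraries, in which a change in the kinds of Trdc barcode and a change in Ltb per barcode cannot be told apart.

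**Figure D4:**
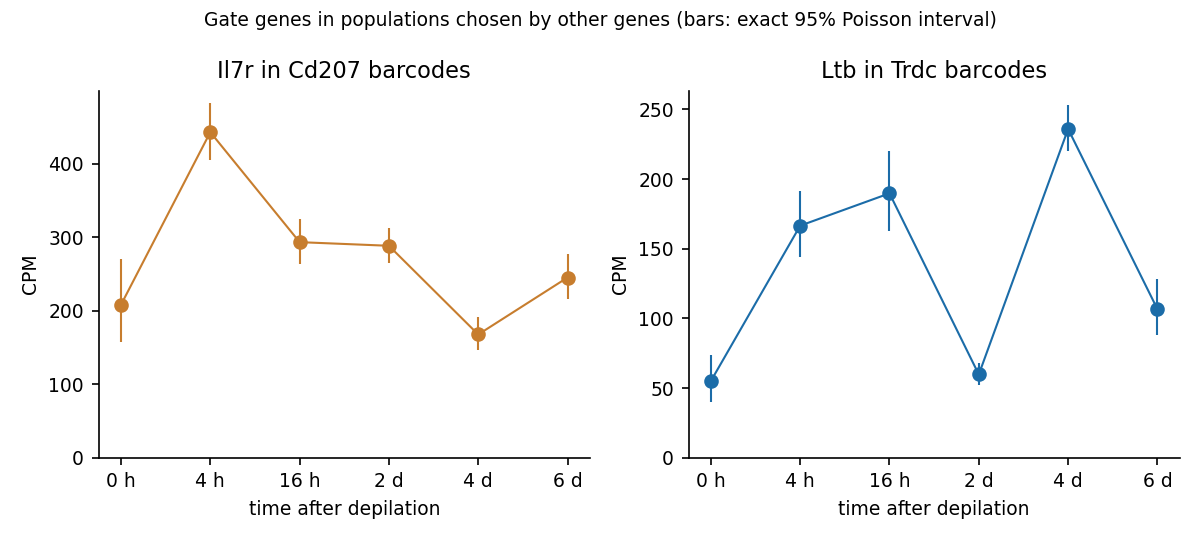
Level of Il7r in Cd207 barcodes (left) and of Ltb in Trdc barcodes (right) by time after depilation, in CPM with exact 95% Poisson intervals, 1 library per point. Il7r was highest at 4 h (443) and Ltb at 4 days (236), with Ltb low at 0 h (55.1) and 2 days (59.8).

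To ask how gated barcodes differed from the other T cells of the same skin, UMIs were summed per library over the gated and over the other CD3 barcodes, and the 6 differences within libraries were tested by the quasi-likelihood test of edgeR with Benjamini-Hochberg adjustment at a false discovery rate of 0.05. The genes that define either population, with Gzmc and Cxcr6, were not tested. Of 9020 genes tested, 906 were higher in gated barcodes (10%) and 1331 were lower (14.8%), or 24.8% together. All 7 tested Langerhans and dendritic cell markers and all 6 tested macrophage and monocyte markers were higher, such as Cd207 by 5.77 ± 1.43 (log2, SE) and the complement gene C1qa by 6.15 ± 0.51. Of these calls 4 of the 7 and 0 of the 6 were of genes that reached the count filter in the other CD3 barcodes alone, and 3 of the 7 and 3 of the 6 stood with each library left out in turn. The median log2 difference was 5.38 over the first list and 5.22 over the second, against -0.08 over all genes. Other CD3 barcodes had to carry at least 4 CD3 and Trdc UMIs, and gated barcodes did not. The 172 gated barcodes with MHC class II, none of which held 4, could therefore fall only on the gated side. The differences in these lists were set by that selection, so they describe the levels and support nothing. Leaving out any library but that of 0 h ended the call of Cd207 at differences from 5.07 to 6.37, and its difference was -3.31 where only gated barcodes with 4 or more CD3 and Trdc UMIs were kept. The neutrophil list had 1 of 1 tested member higher, Mmp9, which reached the count filter only through the gated barcodes. Within the gated barcodes Mmp9 was higher in clusters 3, 5 and 6, most of whose barcodes carried MHC class II. The mast cell list had 0 of 1 and the melanocyte list 0 of 4 called in either direction, and no fibroblast or endothelial marker reached the count filter.

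The 355 gated barcodes without MHC class II were therefore compared with other CD3 barcodes in a second fit, chosen after the data had been seen, and all differences from here to the time course are from it. In this fit the 33 other CD3 barcodes that carried MHC class II were left out as well, so that 2867 remained, and the levels given beside its differences are those of the 2867. Of 8881 genes, 670 were higher (7.54%) and 1041 lower (11.7%), 19.3% in all, and the median difference over all genes was -0.068 on the log2 scale. Between the 2 fits 1257 called genes were shared. Of the 670 higher genes 389 reached the count filter in the other CD3 barcodes alone, and of the 1041 lower genes 651 did so in the gated barcodes alone. The others reached it only through the population where they were high and so had to differ, so their differences describe the levels and no p is given for them. The counts and medians of gene lists are over the members that reached the filter and support nothing where they include such genes. A call is said below to have held when it stood with each library left out in turn, as did 354 of the higher and 547 of the lower calls.

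Interleukin 17 was found in few gated barcodes and in almost no other CD3 barcode. Il17a, a cytokine of type 17 lymphocytes, stood at 202, 103, 85.0, 153, 205 and 222 CPM in the 6 libraries of gated barcodes without MHC class II. In other CD3 barcodes it was at 4.09 at 2 days and 1.18 at 4 days, with no UMI in the other 4 libraries, where a count of 0 allows up to 3.47, 2.48, 3.06 and 2.07 at 0 h, 4 h, 16 h and 6 days. The gated level was higher in each library, and the fitted difference was 6.70 ± 0.34 (log2, SE). Few barcodes carried these UMIs, with 196 Il17a UMIs in 37 gated barcodes and 21 in 5 other CD3 barcodes, and 29 from 1 gated barcode. Il17f, its paired cytokine, was at 708, 60.2, 161, 118, 106 and 445 CPM against at most 2.36, a difference of 7.12 ± 0.34. Both genes reached the count filter only through the gated barcodes.

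Of the 12 listed markers of IL-17 gamma delta T cells, 10 reached the filter, of which 9 were higher and none lower. In the other CD3 barcodes alone 0 of the 10 reached it, so the count supports nothing, and 7 of the 9 calls held. Il17a, Il17f, Blk and Il23r were at a mean of 0.878, 0.634, 0.621 and 1.04 CPM in other CD3 barcodes. The higher ones included Il23r, the receptor of interleukin 23, higher by 3.96 ± 0.71, the kinase Blk by 6.30 ± 0.42, and Ccr6 by 5.91 ± 0.37. Ccr6, the receptor of Ccl20, was at 33.7, 129, 37.8, 69.4, 203 and 119 CPM against 0, 2.48, 0, 0.240, 4.42 and 2.07. Sox13 was 2.14 ± 0.86 and was not called.

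Of the 9 listed regulatory T cell markers 7 reached the filter, of which 6 were higher (5 of these calls held), and the seventh, Tnfrsf9, was -0.10 ± 0.21. Foxp3, Ctla4 and Il2ra reached the filter only through the gated barcodes. Foxp3, the factor that defines these cells, had 32 UMIs in 21 gated barcodes without MHC class II and 4 UMIs in 4 other CD3 barcodes, and differed by 6.08 ± 0.74. Ctla4, an inhibitory receptor, stood at 33.7, 181, 37.8, 83.3, 41.4 and 119 CPM against at most 1.66, a difference of 6.42 ± 0.45. Il2ra, the high affinity chain for interleukin 2, was higher by 4.65 ± 0.30 and Tnfrsf4 (OX40) by 3.22 ± 0.25. Ikzf2 (Helios) was higher by 1.55 ± 0.20. Tnfrsf18 (GITR) was higher by 0.52 ± 0.20 and lost its call without any library but that of 0 h (0.34 to 0.55).

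Alpha beta T cell markers were higher in 4 of 6 tested and lower in none, with a median of 1.69, and 3 of the 4 calls held. Of the 4, 2 reached the filter in the other CD3 barcodes alone, among them Trac. Cd28, the main costimulatory receptor of T cells, was higher by 5.47 ± 0.43, and Trac, the alpha chain constant region, by 2.71 ± 0.26. Trac had no UMI in the 11 gated barcodes of 0 h and stood at 103, 104, 62.5, 106 and 259 CPM in the later libraries, against 15.05, 24.0, 11.2, 10.8, 22.4 and 13.1. Trbc1 was at 944, 1411, 1067, 951, 1131 and 952 CPM against 704, 962, 957, 647, 991 and 464, higher in each library, and did not pass (0.36 ± 0.18, adjusted p = 0.15 by edgeR). Trbc1 and Trbc2 are near-identical, so their counts are uncertain.

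Genes of dendritic epidermal T cells were lower in 5 of 9 tested and higher in 2, with a median of -0.85, but 0 of the 5 lower calls held. Tcrg-C1, a gamma chain constant region, was lower (-1.04 ± 0.20), as were Trdv4, the delta variable segment of these cells (-0.99 ± 0.21), and Cd7 (-1.13 ± 0.22). The 2 higher members were Xcl1, a chemokine (0.61 ± 0.20), and Tyrobp, a signalling adaptor (3.64 ± 0.27). Other CD3 barcodes were chosen by a Trdc and CD3 count, which favours such cells. Nkg7 was at 1551, 860.2, 1756, 798, 972 and 114 CPM against 1709, 1662, 1457, 1240.2, 1562 and 857, lower in all but the 16 h library and by far at 6 days (-0.89 ± 0.20). Of the other tested granule genes, Gzmb was lower (-0.73 ± 0.28), Srgn was higher (0.80 ± 0.18), and Prf1 did not pass (-0.56 ± 0.24). Without the 0 h library Tcrg-C1 (-1.10), Trdv4 (-1.04), Cd7 (-1.19) and Nkg7 (-0.91) no longer passed, and without that of 6 days Srgn (0.55) did not. Tcrg-V5 (-0.67 to -1.01) and Klrd1 (-0.43 to -0.57) each lost the call without the library of 4 h, 2 days, 4 days or 6 days. Xcl1 lost its call without the 0 h (0.32), 2 day or 4 day library, and Gzmb without any library but that of 16 h. The NK receptor list had 5 members higher and 3 lower of 11, of which 3 and 0 held, and the NK and cytotoxic cell list 2 and 1 of 4, of which 1 and 0 held. In the latter Ifng, interferon gamma, was higher by 3.80 ± 0.58 and reached the filter only through the gated barcodes.

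Cxcr6, a chemokine receptor of tissue resident lymphocytes given here with no test, stood at 137, 216, 236, 161, 401 and 786 CPM in all gated barcodes and at 190, 118, 103, 120, 91.3 and 165 in the other CD3 barcodes. After thinning to 1000 UMIs it was found in 23.6% of gated, 15.3% of other CD3 and 0.017% of keratinocyte barcodes. Gzmc stood at 0, 258, 75.5, 257, 1902 and 1215 CPM in gated barcodes without MHC class II against 26.6, 83.6, 90.8, 132, 247 and 283. The gated value was lower at 0 h and 16 h and higher in the other 4 libraries, and at 6 days 229 of its 235 UMIs came from 1 barcode.

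Most cytokine receptor genes called higher reached the filter only through the gated barcodes, so their counts support nothing. Of 13 tested genes of the common gamma chain and interleukin 7 pathway, 6 were higher and none lower (median 0.71), with 2 of the calls held and 3 of the 6 at the filter in the other CD3 barcodes alone. Among them Il21r was higher by 4.34 ± 0.46, and Cish and Socs1, feedback inhibitors of cytokine signalling, were higher by 0.71 ± 0.22 and 0.71 ± 0.21. Cish did not pass without the 4 day library (0.49), nor Socs1 without that of 4 h (0.62), 16 h (0.63) or 2 days (0.55). Il2rb, Il2rg, Jak1 and Jak3 did not pass, with values from -0.23 to 0.84. Of 13 other cytokine receptor genes 7 were higher and 1 lower (median 1.22), and all 8 calls held, but 2 of the 7 reached the filter in the other CD3 barcodes alone. Il18r1, the receptor of interleukin 18, was at 270, 155, 293, 111, 146 and 233 CPM against 6.95, 12.4, 4.08, 4.09, 8.85 and 8.27, with no overlap and a difference of 4.49 ± 0.26. Il1rl1, the interleukin 33 receptor of regulatory T cells and type 2 innate lymphoid cells, was higher by 5.98 ± 0.76, whereas Il12rb2, the interleukin 12 receptor chain, was lower (-1.48 ± 0.27). The type 2 innate lymphoid list had 2 of 5 members higher, Il1rl1 and Il18r1, both at the filter only through the gated barcodes, with Gata3 at -0.14 ± 0.21 and Il13 at 0.41 ± 0.28.

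Of 12 costimulatory and inhibitory receptors 8 were higher and 1 lower (median 1.97), of which 6 and 1 held, and 3 of the 8 reached the filter in the other CD3 barcodes alone. Pdcd1 (PD-1) was higher by 6.86 ± 0.52 and Cd27 by 3.87 ± 0.29, and Havcr2 (TIM-3) was lower (-1.78 ± 0.27). Of 9 TNF family ligands 6 were higher and none lower (median 1.52), 3 of them held and 3 reached the filter in the other CD3 barcodes alone. Lta, the partner of Ltb in the lymphotoxin trimer, was higher by 1.82 ± 0.34 and Tnf by 1.61 ± 0.32. Cytokines were higher in 6 of 8 (median 1.73; 4 held, 2 at the filter in other CD3 barcodes alone), and Areg, a growth factor for keratinocytes, was not among them (-0.58 ± 0.26, adjusted p = 0.12 by edgeR). Chemokines and their receptors were higher in 8 of 10 (median 3.05; 6 held, 3 at the filter in other CD3 barcodes alone), including Cxcr4 by 5.70 ± 0.46 and Ccr2 by 3.12 ± 0.30. Residency and egress genes were higher in 3 and lower in 3 of 14 (median 0.15), of which 2 and 2 held, with Cd69 higher by 1.88 ± 0.20 and Rgs2 lower (-0.99 ± 0.18).

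Of 22 lymphocyte transcription factors 12 were higher and 3 lower (median 1.0), of which 11 and 1 held, and 6 of the 12 reached the filter in the other CD3 barcodes alone. Ikzf3 (Aiolos) was at 472, 267, 151, 201, 110 and 357 CPM against at most 3.45, and differed by 7.0 ± 0.31, with its 215 UMIs spread over 119 barcodes. Rora, a factor of type 17 and innate lymphocytes, was at 1315, 490.3, 302, 812, 302 and 1365 CPM against 93.8, 66.2, 113, 191, 58.4 and 116, higher by 2.56 ± 0.20. Maf, a factor of interleukin 17 and regulatory T cells, was higher by 1.73 ± 0.20 and Id2 by 1.08 ± 0.19, while Id3 was lower (-1.17 ± 0.24). The other 2 lower factors lost the call in most fits with a library left out, Nfil3 (-0.47 to -0.58) in all but that without 6 days and Zeb1 (-0.39 to -0.65) in those without 0 h, 4 h, 16 h or 2 days. Of 15 T cell receptor signalling genes 6 were higher and 3 lower (median 0.22), of which 6 and 2 held, with Zap70 higher by 1.06 ± 0.22, Cd2 lower (-0.80 ± 0.19) and Trat1 lower (-1.05 ± 0.20).

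The series was made to study Mcl1 in the hair follicle, and the Bcl-2 family of survival regulators was read in the gated barcodes for that reason. Mcl1, a survival protein, was at 405, 378, 406, 292, 248 and 228 CPM in gated barcodes without MHC class II against 296, 271, 236, 245, 222 and 212. It was higher in each library but did not pass (0.25 ± 0.19, adjusted p = 0.42 by edgeR). In gated barcodes with MHC class II it was at 1010.5 CPM over all libraries, and with all 527 gated barcodes it was higher by 1.12 ± 0.20. Of 15 tested family members 5 were higher and 1 lower (median 0.25), of which 4 and 1 held. The higher ones were 3 copies of Bcl2a1 (A1), Bcl2l1 (BCL-XL) by 1.38 ± 0.36 and Bcl2l11 (BIM), the death activator, by 1.44 ± 0.33, and Bcl2l1 was not called without the 2 day library (1.05). Bcl2a1b, the most abundant copy, was at 303, 189, 104, 222, 280 and 719 CPM against 0, 6.62, 2.04, 6.73, 8.26 and 1.38, higher by 5.70 ± 0.29. The Bcl2a1 copies reached the filter only through the gated barcodes and are near-identical, so counts of any 1 of them are uncertain. Bok was lower (-1.99 ± 0.35), and Bcl2 did not pass (-0.39 ± 0.24).

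**Figure D5:**
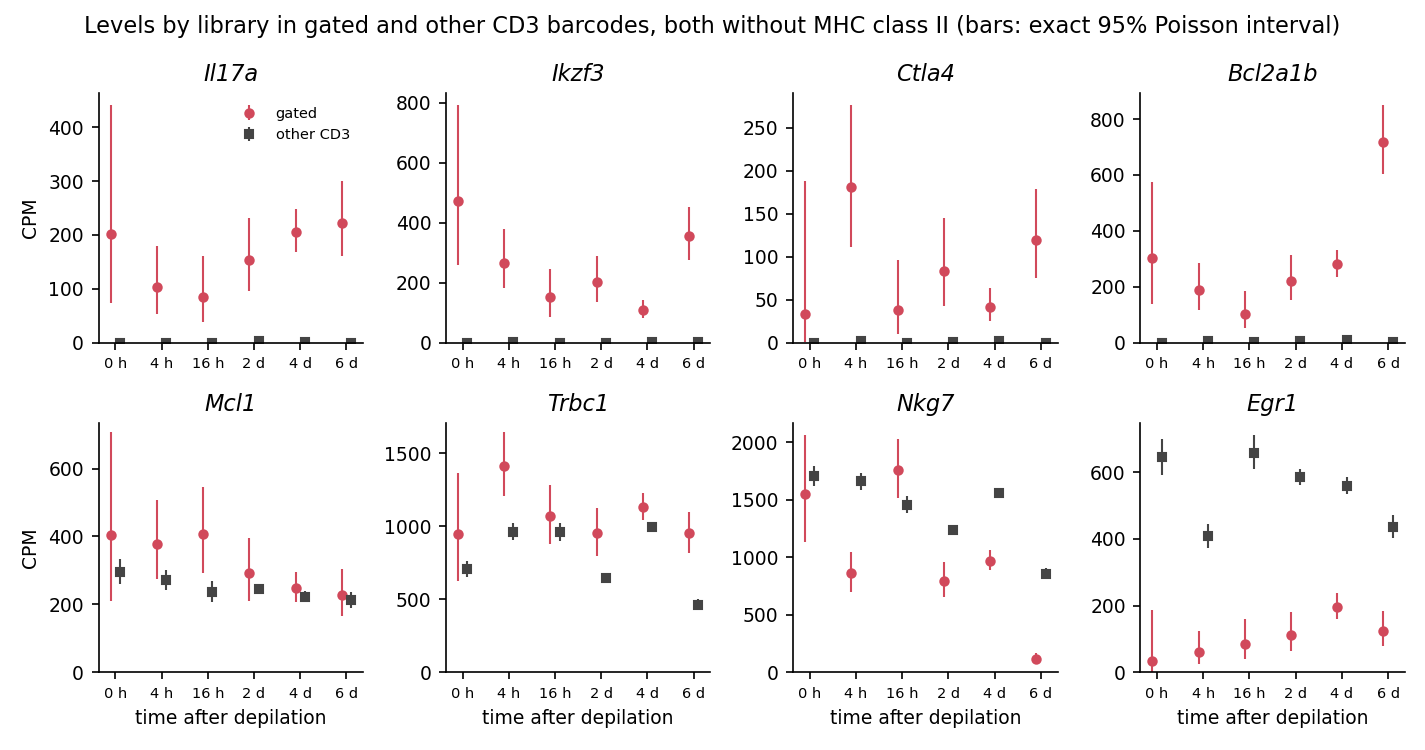
Levels of 8 genes by library, in CPM with exact 95% Poisson intervals, in gated and in other CD3 barcodes, both without MHC class II. Il17a, Ikzf3, Ctla4 and Bcl2a1b were higher in the gated barcodes of every library, and Egr1 was lower in every library. Mcl1 and Trbc1 were higher in each library by values that did not pass (0.25 ± 0.19 and 0.36 ± 0.18), with Trbc1 at 952 against 464 at 6 days.

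Keratinocyte genes were lower in gated barcodes. Of the 10 keratinocyte markers 9 were lower (median -2.24) and 7 of these calls held (without the 0 h library Krt5, at -1.42, and Krt15, at -1.71, did not pass), such as Krt10, a keratin of the upper epidermis (-4.07 ± 0.21), and Krt1 (-4.11 ± 0.25). Of the 12 named genes with the largest negative differences, Mt4, a metallothionein at the filter only through the other CD3 barcodes, came first (-4.60 ± 0.39), followed by Sprr1a (-4.32 ± 0.30), and Krt1 and Krt10 were the only members of the keratinocyte list. The 10 markers summed to 1.83% of the UMIs of the 2867 other CD3 barcodes and to 0.521% in gated barcodes without MHC class II, with Krt14 the most abundant at 5446 and 2143 CPM. Keratinocyte markers passed 2% of UMIs in 373 of the 2900 other CD3 barcodes (12.9%) and in 11 of the 355 (3.10%), and 484 of the other CD3 (16.7%) and 28 of the 355 (7.89%) had high doublet scores.

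Immediate early and heat shock genes were lower in 10 of 15 tested and higher in none (median -0.72), and 7 of the 10 calls held. Dusp1 (-0.40 to -0.57) lost its call without any library but that of 4 days, Hspa1b without that of 0 h (-0.96), 16 h (-0.70) or 6 days (-0.47), and Hsp90aa1 without that of 4 h (-0.57) or 6 days (-0.55). Egr1, an early response factor, was at 33.7, 60.2, 85.0, 111, 195 and 124 CPM in gated barcodes without MHC class II against 645, 408, 659, 585, 560 and 436, without overlap (-2.30 ± 0.22). Without barcodes over 2% keratinocyte markers, 4 of the 15 were lower and 1 was higher. Of all 7486 genes tested then, 562 were higher and 776 lower. The IL-17 list (8 of 8 higher) and the regulatory list (5 of 7 higher) support nothing here. With no barcode left out, all tested IL-17 members, with Foxp3, Ctla4 and Il2ra, reached the filter only through the gated barcodes. The part of keratinocyte RNA in the differences was not tested. Cycling genes were lower in 4 of 10 (median -0.67, 2 held), among them Top2a (-1.10 ± 0.27, not called without the 4 day library). Without barcodes over 2% keratinocyte markers 1 of 10 was lower. After thinning to 1000 UMIs, at least 2 UMIs of the cycling genes were found in 14.3% of gated (11.4% to 17.6%), 21.6% of other CD3 (20.1% to 23.1%) and 17.2% of keratinocyte barcodes, and unthinned in 41.3%, 49.5% and 61.0% at median depths of 2929, 2424 and 8308 UMIs. The gated barcodes without MHC class II gave 18.1% (14.3% to 22.6%), an interval that overlapped that of other CD3 barcodes, and those with MHC class II gave 6.395% (3.24% to 11.2%). Unthinned, these gave 41.9% and 40.1% at median depths of 2485 and 4194 UMIs. Interferon response genes were higher in 3 of 8 and lower in none (median 0.58; 2 held), and of the B cell list 1 of 2 was higher. This was Ighm, the heavy chain of immunoglobulin M (0.98 ± 0.38, adjusted p = 0.0493 by edgeR), higher in 3 of 6 libraries and not called without the 0 h, 2 day, 4 day or 6 day library (0.56 to 1.05).

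The change over time within the gated barcodes was tested with a spline of the hours over the 6 sums, which leaves 2 residual degrees of freedom. Of 4917 genes none was called by edgeR at a false discovery rate of 0.05 (0% called), and 234 had an unadjusted p under 0.05 (4.76%). Without MHC class II 5 of 2595 were called (0.193%), all with a positive trend from 0 h to 6 days. They included the proliferation gene Stmn1 (3.99 on the log2 scale), the keratins Krt17 (3.72) and Krt16 (0.89) and the interferon response gene Ifi27l2a (3.48), and these 4 lost the call without the 2 day library, at 3.90, 3.6, 0.35 and 4.18. Stmn1 also lost it without the 4 day library (2.81). These sums include the keratinocyte-like cluster 8, none of whose barcodes carried MHC class II. It numbered 0, 1, 0, 3, 11 and 5 by library, and its part in the Krt17 and Krt16 values was not tested. Without the 0 h library, the smallest with 12 gated barcodes, 115 genes were called in all gated barcodes and 128 without MHC class II. In sums of this kind fewer cells of a type and less RNA per cell cannot be told apart.

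The difference between gated and other CD3 barcodes changed with time in 5 of 9020 genes (0.0554%). Cd163l1 (Scart1), a marker of IL-17 gamma delta T cells, was at 0, 16.2, 0, 18.9, 39.9 and 79.0 CPM in gated barcodes and at 1.14, 21.2, 7.95, 1.65, 3.01 and 0.689 in other CD3 barcodes. These levels are over all gated barcodes, of which 59 of 103 at 4 h carried MHC class II. Without those it was at 0, 51.6, 0, 41.7, 45.3 and 114 CPM, above the level of the 2867 other CD3 barcodes in 4 of 6 libraries. Its trend over all gated barcodes differed by 7.04 (log2 from 0 h to 6 days). Cd163l1 reached the count filter only through the gated barcodes, so its trend values describe the levels and support nothing. Sh2d2a, a T cell adaptor, was at 54.6, 64.9, 51.2, 56.8, 88.4 and 187 against 27.3, 67.8, 42.8, 37.5, 31.4 and 15.2, a trend difference of 3.37. Without MHC class II the difference in trend was called in 7 of 8881 genes (0.0788%), among them Cd163l1 (5.58), Spink5 (13.1), Krt16 (4.07), Cst6 (2.70), Krt15 (2.29) and Rgcc (-2.27). Each of these 6 lost its call with at least 1 library left out. Cd163l1 did so without the 0 h (5.57), 4 h (6.17) or 6 day (4.99) library, and Spink5 without that of 6 days (14.2). Krt16 did so without the 0 h library (4.38) and turned to -2.15 without that of 6 days. Cst6 did so without the 0 h (2.43) or 6 day (3.73) library, Krt15 without any but those of 4 h and 6 days (1.69 to 2.63), and Rgcc without the 16 h (-1.98), 2 day (-2.20) or 6 day (-0.50) library. Spink5, Krt16, Cst6 and Krt15 are genes of keratinocytes, and 96 of the 107 Spink5 UMIs of all gated barcodes came from 1 barcode of the 6 day library. With time as log2 of hours, none of the 5 genes was called, and without the 6 day library Sh2d2a was not, while 61 genes were called in all. Cd163l1 was not called without the 4 h library (7.34).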

How the data were processed

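The authors aligned the reads to the mouse mm10 build with Cell Ranger 6.1.2, per the labels, and deposited unnormalised UMI counts, 32285 features by barcode, for each of 6 libraries. Of 61031 barcodes, 55177 with 500 to 7000 detected genes and at most 10% mitochondrial UMIs were kept. No doublet was removed, and Scrublet scores were computed per library for an alternative. The barcodes and gene lists were chosen with earlier results of these data known. Counts were summed per library and tested in R 4.3.3 with edgeR 4.0.16 (limma 3.58.1; TMM, filterByExpr, robust glmQLFit and glmQLFTest), with the library as a block between populations, a spline in hours (natural cubic, 3 degrees of freedom) over time and a population by hours term for the trend difference. P-values were adjusted by Benjamini-Hochberg over all genes tested. The 6 libraries are single pools, so the spread is that between libraries. MHC class II barcodes were set apart at 20 UMIs, which was chosen after seeing the data, and in those fits were left out of both populations. Named genes were the 12 called genes with the largest difference in each direction (same sign in every library, at least 50 CPM), the largest trends, and up to 4 called genes per list. Genes in the text beyond these were chosen after their values were seen, and some that the rule named are not reported here. Members were clustered with scanpy 1.11.5 (Leiden, 15 principal components, resolution 0.5). Shares with a UMI were thinned to 1000 UMIs per barcode, with exact binomial or Poisson intervals at 95%. Alternatives included DESeq2 1.42.0, RLE size factors, no low-count filter, no block, stricter gates, leaving out doublets, keratinocyte RNA or each library, other time scales, and the count filter applied to the population with the lower level alone (chosen after seeing the data). The test scripts were tested on simulated data.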

Additional observations from a re-analysis of the deposited data

Results flagged for a closer look

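The difference between gated and other CD3 barcodes changed with time, by the interaction of population and hours in edgeR, in 5 genes, each given as the difference in log2 trend from 0 h to 6 days. Cd163l1 gave 7.04, with 79.0 CPM in gated and 0.689 in other CD3 barcodes at 6 days. Cd163l1 reached the count filter only through the gated barcodes. Spink5, an epidermal protease inhibitor, gave 6.404 and rested on 1 barcode of the 6 day library, without which library it was 2.46 and not called. Serpinb9, an inhibitor of granzyme B, gave 3.83 and stood at 93.3 against 56.5 CPM at 6 days, after 18.9 against 139 at 4 h. Sh2d2a gave 3.37, and without the 6 day library 2.21 and no call. Ifi30, a lysosomal enzyme of antigen presenting cells, gave -3.00, with 273, 368, 445, 306, 91.9 and 133 CPM in gated barcodes against 15.9, 17.2, 29.8, 44.3, 39.9 and 42.0. Gated barcodes with MHC class II made up 59 of 103 at 4 h and 19 of 184 at 4 days, and their part in the Ifi30 trend was not tested. Cd163l1 (7.34), Serpinb9 (3.63) and Ifi30 (-2.55) lost the call without the 4 h library, and Ifi30 also without that of 2 days (-2.97) or 4 days (-2.51).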

How the results depend on the processing

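Each library is a single pool, so the block is the library and not an animal. Without the library block, the comparison of all gated barcodes gave 517 genes higher and 635 lower, and that without MHC class II 305 and 374. Keeping members with at least 4 CD3 UMIs gave 479 and 746 in the first comparison. Leaving out barcodes over 2% keratinocyte markers gave 954 higher and 874 lower in it, and thinning to 1000 UMIs gave 450 and 626 in the first and 285 and 465 in the second. DESeq2 called 688 lower in the second. Leaving out 1 library at a time gave 718 to 951 higher and 946 to 1245 lower in the first, and 475 to 658 and 768 to 973 in the second. Cd207 turned to -3.31 among members with at least 4 CD3 UMIs. In the second comparison Dusp1 turned to 0.11 and Hspa1b to 0.092 without barcodes over 2% keratinocyte markers, and Hspa1b to 0.33 after thinning. Dusp1 was at -0.067 without high doublet scores and at -0.012 after thinning. The cause of these moves was not tested.

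The time course in all gated barcodes called 7 genes with log2(hours + 1), 4 with the rank of the time point, 105 with no low-count filter and 0 to 115 with 1 library left out. Without MHC class II these were 12, 10 and 1 to 128, and a linear trend alone called 0. The trend difference called 0 with log2(hours + 1) and 4 to 61 with 1 library left out, and without MHC class II 2 and 3 to 22. The 115, 128, 61 and 22 came without the 0 h, 0 h, 6 day and 4 h libraries. With 1 library left out, the Krt16 trend difference ran from -2.15 (without 6 days) to 4.62. At 5 gate UMIs and 12 per 10000 the shares of passing barcodes were 0.0866%, 0.757%, 0.321%, 0.399%, 0.822% and 0.545% in time order. Without thinning, a UMI was found in 60.4% (Cd3g), 38.3% (Trdc), 7.05% (Il17a), 4.00% (Foxp3) and 40.6% (Cxcr6) of gated barcodes. With RLE size factors or without high doublet scores, the counts of both comparisons did not move by over 1.5 times. With these settings the time course in all gated barcodes called 0 genes. The other fits over time were not run with them. The 0 h sums rest on 12 and 11 barcodes, which limits every value of that library. Pools of 2 mice leave the spread between animals unmeasured.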

Other observations

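After thinning to 1000 UMIs, Il17a was found in 4.76% of gated, 0.070% of other CD3 and 0% of keratinocyte barcodes, Ikzf3 in 11.6%, 0.246% and 0%, and Foxp3 in 1.90%, 0.035% and 0%. Cd207 was found in 32.0% of gated and 1.44% of other CD3 barcodes, beside 0.217% of keratinocyte barcodes. The share of other CD3 barcodes with over 2% keratinocyte markers was 8.66%, 7.96%, 12.4%, 16.1%, 12.5% and 13.1% in time order. Il1b, an inflammatory cytokine, stood at 0, 2342, 263, 109.8, 129.9 and 2230.5 CPM in gated barcodes with MHC class II, where the 0 h value is from 1 barcode. In the same barcodes Cd207 was at 5898, 9368, 4162, 3556, 3030.0 and 18548.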
